A study of Bactrocera dorsalis with 16 samples.

Results

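The microRNA miR-8 and its star strand were followed in small RNA libraries from the oriental fruit fly, Bactrocera dorsalis. All entries of the deposited table whose name carries the number 8 after miR- were taken, and entries of the same sequence were to be summed. This gave 5 of 747 distinct sequences (788 entries), each with 1 entry. The 16 libraries came from adult females of a laboratory colony fed yeast extract and sugar, and no treatment or genotype is named in the labels. Ovary and fat body were taken 1, 5, 9 and 13 days after the adult left the pupal case, with 2 libraries for each of the 8 groups. The labels do not say how many animals were pooled or whether the replicates were separate collections, so p-values measure only the spread between these libraries.

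A microRNA is a short RNA cut from a hairpin precursor as a duplex. One strand, the main strand, is usually kept in an Argonaute protein, which it guides to messenger RNAs through its seed, and the other, the star strand, is usually lost. In Drosophila, miR-8 acts in the fat body to promote body growth by repressing u-shaped, an inhibitor of insulin signalling. The fat body stores nutrients and makes yolk proteins, and the ovary makes the eggs.

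The sequences are shown because they tell the strands and their near copies apart. They are written 5′ to 3′ from the deposited table, as DNA letters, with the seed (bases 2 to 8) in capitals.
bdo-miR-8_R+1: tAATACTGtcaggtaaagatgtc
dme-miR-8-5p: cATCTTACcgggcagcattaga
pca-miR-8-3p_1ss17AT: tAATACTGtcaggtaatgatgtc
pca-miR-8-5p: cATCTTACcgggcagcattgga
isc-miR-8_R+2: tAATACTGtcaggtaaagatgtctg

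The prefix of a name is the species whose catalogued miRNA was matched, and all reads are from B. dorsalis. The first sequence, of 23 bases, is the main strand and is called miR-8 below. The second, of 22 bases, comes from the other arm and is called the star. The third differs from miR-8 by A17T and the fourth from the star by A20G, counted from the 5′ end with the base of the main or star sequence first. The fifth is miR-8 with 2 more bases at its 3′ end. The seed AATACTG stood in 3 sequences of the table and the seed ATCTTAC in 2, all of them among these 5. No other sequence shared either seed or 12 bases in a row with them. Folded together with RNAduplex, miR-8 and the star formed 18 base pairs, 1 of them G-U, with a predicted energy of -18.20 kcal/mol. Each strand kept 2 unpaired bases at its 3′ end, and positions 5, 11 and 15 of miR-8 were unpaired inside the duplex, so that 6 bases of the seed were paired.

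The near copies were rare. The A17T sequence was above 0 in 13 libraries, with a median of 4.49 and a highest value of 12.14 in the normalised signal of the table, and reached 10 in 3 libraries, all of fat body. Summed over the libraries it stood at 0.379 per 10000 of miR-8. The A20G sequence was above 0 in 11 libraries, reached 9.2 and stood at 5.03 per 10000 of the star. The longer sequence was above 0 in 8 libraries, reached 3.07 and stood at 0.0636 per 10000 of miR-8. Of the 5 sequences, 3 passed the filter for testing, which asked for 10 or more in 2 or more libraries. The A17T sequence passed only through fat body libraries, so its tests are not used.

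The summed signal per library ran from 434089 to 1155602. Reads recovered from the spacing of the values ran from 193954 to 1864999 per library, with 11540 to 337229 reads of miR-8 and 440 to 9176 of the star. The mean summed signal rose from 440288 at day 5 to 898130 at day 13 in ovary and from 647587 to 1120744 in fat body, and how the libraries were scaled is not given in the sources used here. Both libraries labelled day 9 replicate 2 stood apart from their replicates and are shown apart. A list of miRNAs known from the fly ovary and early embryo (26 sequences, such as miR-989, miR-318 and miR-994) made up 29.75% of the signal in fat body day 9 replicate 2, as labelled, and at most 0.535% in the other 7 fat body libraries. The same list made up 5.46% in the library labelled ovary day 9 replicate 2, 28.69% in its replicate and between 0.861% and 29.55% over all ovary libraries, with 16 of its 18 tested sequences called higher in ovary over the mean of days by limma, where 24.6% of all 321 were. On recovered reads edgeR called 5 of the 18 higher (58 of 321 overall) and DESeq2 called 7 (58 of 321). By day, limma called 2 of the 18 higher in ovary at day 1, where 8 of all 321 were. It called 0 of the 18 at days 5 and 9 (5 and 0 of all 321) and 18 at day 13 (98 of all 321). A member could pass the filter through only the libraries where it was high, so these counts only describe the list. The part of this list in the miR-8 values was not tested.

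Fat body held more miR-8 than ovary. At day 1 the signal of miR-8 was 22734 and 36603 in ovary and 150156 and 162212 in fat body. At day 5 it was 26565 and 35902 in ovary and 192827 and 222100 in fat body. At day 13 it was 47354 and 36579 in ovary and 280284 and 274327 in fat body. On these 3 days every fat body library lay above every ovary library. At day 9 the first replicates held 64872 in ovary and 284047 in fat body, while the libraries labelled replicate 2 held 166749 in ovary and 65452 in fat body. The order of the tissues was thus opposite in the replicates of day 9.

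**Figure D1:**
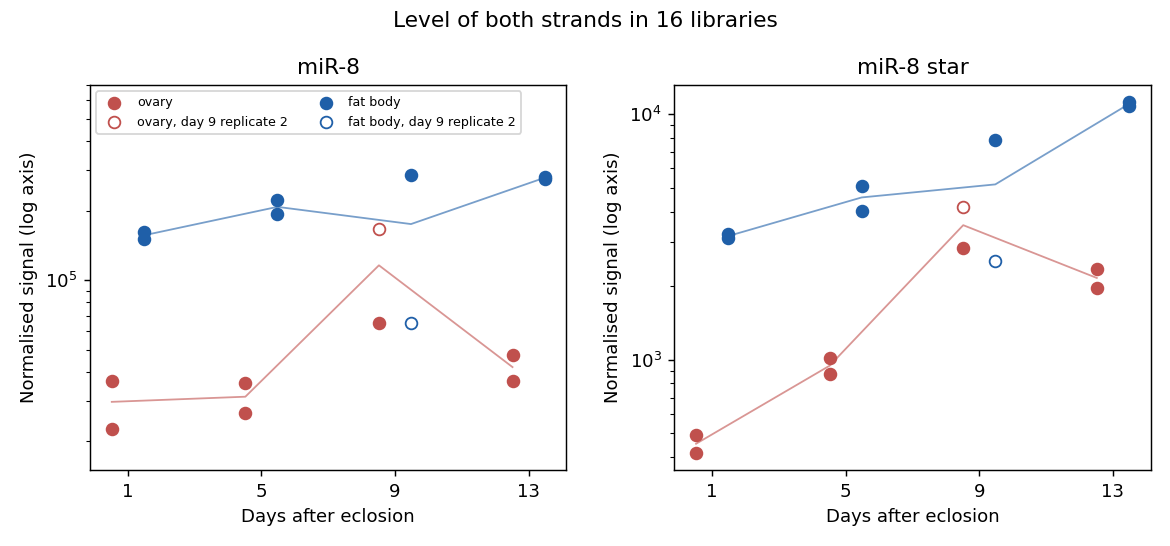
Normalised signal (log axis) of miR-8 (left) and its star (right) by day after eclosion, 1 point per library, ovary in red and fat body in blue, shifted sideways for legibility; open points are the day 9 replicate 2 libraries and lines join the group means. Apart from the open points, every fat body library lies above all ovary libraries of its day.

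Ordered by group mean, ovary at day 1 was lowest with 29668 ± 9807 (SD, n = 2), then ovary at day 5 with 31234 ± 6602 (SD, n = 2) and ovary at day 13 with 41967 ± 7619 (SD, n = 2). The libraries of day 1 overlapped those of both day 5 and day 13, and day 5 lay just below day 13. Ovary at day 9 followed with 115811 ± 72038 (SD, n = 2), then fat body at day 1 with 156184 ± 8525 (SD, n = 2) and at day 9 with 174749 ± 154570 (SD, n = 2). Both day 9 groups spanned the fat body libraries of day 1 and overlapped each other, and fat body at day 9 spanned those of all other fat body days. Fat body at day 5 with 207464 ± 20700 (SD, n = 2) and at day 13 with 277306 ± 4212 (SD, n = 2) stood at the top without overlapping each other. By share of the library, days 5 and 13 stood in the reverse order in both tissues. In fat body miR-8 made up 29.37% and 34.78% at day 5 and 25.81% and 23.74% at day 13. In ovary it made up 5.95% and 8.27% at day 5 and 5.78% and 3.75% at day 13.

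Over the mean of the 4 days, miR-8 was 4.22-fold lower in ovary (log2 -2.08, SE 0.30, 95% confidence interval -2.72 to -1.44, adjusted p = 0.000887), by limma across 321 tested sequences with Benjamini-Hochberg adjustment. The star was 3.86-fold lower (log2 -1.95, SE 0.24, adjusted p = 0.000536). Of all tested sequences 37.1% passed this test, 12.5% as lower in ovary, and by size of the difference miR-8 stood in place 52 and the star in place 63. Without both day 9 replicate 2 libraries the differences were -2.51 and -2.22, and 54.2% of sequences were called. In tissue samples, fewer cells holding a miRNA and less of it per cell cannot be told apart.

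At day 13 miR-8 was 6.66-fold lower in ovary (log2 -2.74, SE 0.59, adjusted p = 0.00312) and the star 5.13-fold lower (log2 -2.36, SE 0.48, adjusted p = 0.00253), where 44.9% of sequences were called, 14.3% as lower in ovary. At day 1 the log2 differences were -2.44 for miR-8 (adjusted p = 0.0437) and -2.81 for the star (adjusted p = 0.00933), where 3.12% were called. At day 5 they were -2.74 and -2.27 (adjusted p = 0.0377 for both), where 2.18% were called. At each of these days miR-8 and its star were the 2 sequences that limma called lower in ovary with all libraries, 0.623% of those tested. By size of the difference miR-8 and the star stood in places 25 and 15 at day 1 and 35 and 59 at day 5. On recovered reads DESeq2 called 7 sequences lower at day 1 and 9 at day 5, and edgeR called 0 lower at both. The miR-8 call at day 1 was lost when any 1 library of days 1, 5 or 13 was left out, and so were both strands' calls at day 5 (adjusted p up to 0.355 and 0.207). The star's call at day 1 was lost without any 1 library of that day (adjusted p 0.0845 to 0.145). At day 9 the differences of -0.39 for miR-8 (interval -1.67 to 0.89) and -0.36 for the star (interval -1.40 to 0.68) did not pass (adjusted p = 0.994 for both). Limma called 0 sequences at day 9 (1 at an unadjusted p under 0.05). DESeq2 and edgeR, run on recovered reads, also called 0. Without both replicate 2 libraries, which leaves 1 library per tissue at day 9 and assumes that it varies like the other groups, the log2 differences were -2.13 (adjusted p = 0.000998) and -1.45 (adjusted p = 0.00305), and 34.6% of sequences were called.

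**Figure D2:**
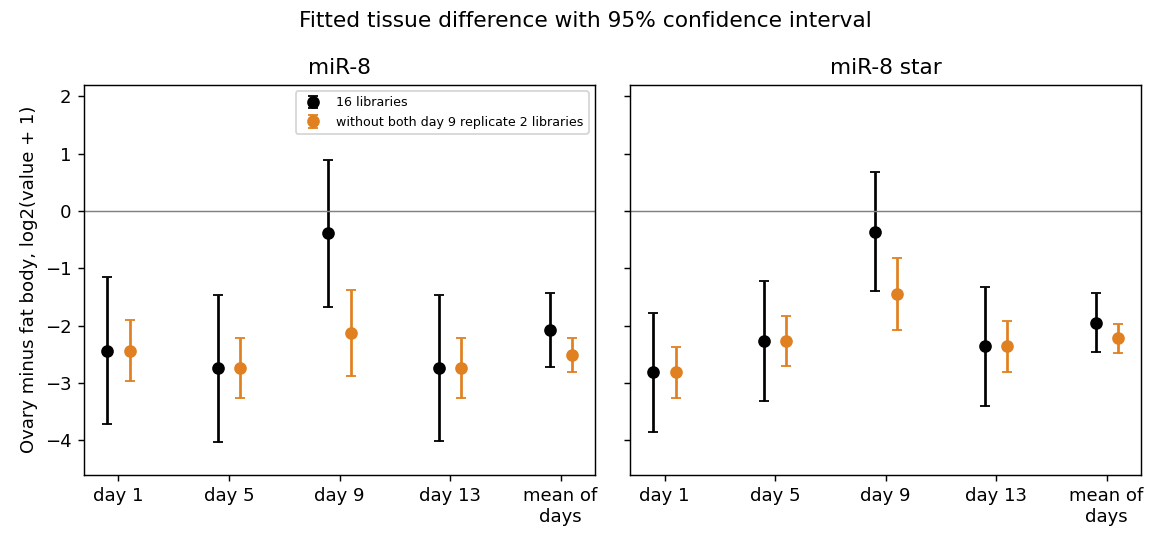
Fitted difference of ovary minus fat body in log2(value + 1) for miR-8 (left) and the star (right) at each day and over the mean of days, with 95% confidence intervals; black, all 16 libraries, orange, without both day 9 replicate 2 libraries. The day 9 difference of miR-8 moves from -0.39 to -2.13, and the other days keep their values with narrower intervals.

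The share of the library does not depend on how libraries were scaled against each other. In ovary miR-8 made up 4.40% and 6.69% of the summed signal at day 1, 5.95% and 8.27% at day 5, and 5.78% and 3.75% at day 13. In fat body it made up 21.83% and 23.25% at day 1, 29.37% and 34.78% at day 5, and 25.81% and 23.74% at day 13. At day 9 it made up 9.40% and 25.86% in ovary and 30.89% and 9.22% in fat body, replicate 1 first. Apart from the day 9 replicate 2 libraries, the shares of the tissues did not overlap. The mean share was 8.76% ± 7.15 (SD, n = 8) in ovary and 24.9% ± 7.69 (SD, n = 8) in fat body, a difference of -16.1 percentage points (two-sided exact permutation test within days, p = 0.00772, adjusted p = 0.0309 over 4 tests). Without ovary day 9 replicate 1 it was -14.0 points (exact permutation test, adjusted p = 0.0586), and without fat body day 9 replicate 1 it was -13.4 points (exact permutation test, adjusted p = 0.0762). A share does depend on what the rest of the library holds. With miR-276a left out of the summed signal the difference was -24.4 points (exact permutation test, adjusted p = 0.0247). By abundance miR-8 ranked between 1 and 4 in the fat body libraries, first in both of day 5, and between 2 and 8 in the ovary libraries.

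**Figure D3:**
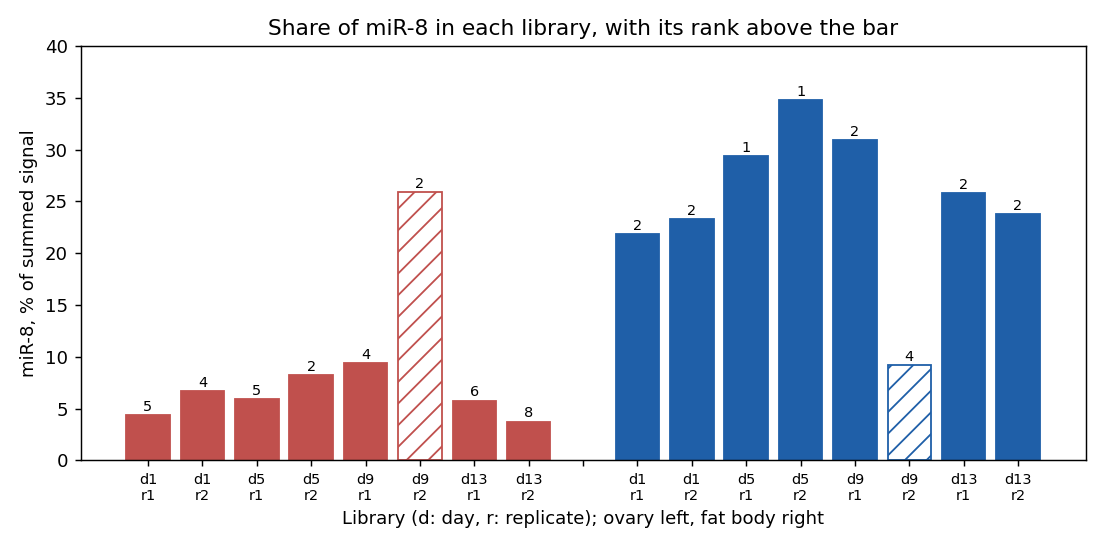
Share of miR-8 in the summed signal of each library, in percent, 1 bar per library. Ovary is on the left in red and fat body on the right in blue, each by day (d) and replicate (r). Hatched bars are the day 9 replicate 2 libraries, and the number above a bar is the rank of miR-8 by abundance. Without the hatched bars the ovary libraries lie between 3.75% and 9.40% and the fat body libraries between 21.83% and 34.78%.

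Over the days the star changed in ovary. It read 417 and 491 at day 1, 1013 and 876 at day 5, 2851 and 4200 at day 9, and 1959 and 2340 at day 13. These 4 days did not overlap in the star, although they did in miR-8. The range of the 4 group means of the star was 2.93 on the log2 scale (limma joint test over days, adjusted p = 0.0021), where 27.1% of sequences were called. The range of miR-8 was 1.85 (adjusted p = 0.0793), and without both day 9 replicate 2 libraries it was 1.17 and passed (adjusted p = 0.0219), where 54.8% were called. The joint test of miR-8 in ovary also passed without ovary day 9 replicate 1 (range 2.53, adjusted p = 0.0324) or without either fat body library of day 9 (range 1.85, adjusted p = 0.00636 and 0.00607). Leaving out a fat body library leaves the ovary values as they were, for this range and for the steps below. It alters only the test, through the spread shared by all groups. Of the steps between days, with all 16 libraries, the star's rise from day 5 to day 9 in ovary passed (3.67-fold, log2 1.88, SE 0.48, adjusted p = 0.0255), where 8.1% were called, 7.17% as higher. That call was lost without any 1 ovary library of day 5 or day 9 (log2 1.60 to 2.16, adjusted p 0.0736 to 0.152). The same step of miR-8 was 1.75 (adjusted p = 0.0961) with all libraries. It passed without both day 9 replicate 2 libraries (1.07, adjusted p = 0.0234, where 24% were called) and without either fat body library of day 9 (1.75, adjusted p = 0.00722 and 0.00712). Without both day 9 replicate 2 libraries the star's rise from day 1 to day 5 in ovary also passed (1.06, adjusted p = 0.0128, where 9.97% were called). The muscle miRNAs of the table (miR-1 and miR-133, 6 sequences) made up 6.71% of the library labelled ovary day 9 replicate 2 and between 0.483% and 4.97% of the other ovary libraries. Their part in the day 9 values was not tested.

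In fat body the star read 3132 and 3235 at day 1, 4040 and 5107 at day 5, 7811 and 2524 at day 9, and 10811 and 11144 at day 13. Day 13 was highest, and the library labelled day 9 replicate 2 was lowest. With all libraries, the joint test over days did not pass for the star (range 1.79, adjusted p = 0.0692) or for miR-8 (range 1.02, adjusted p = 0.445), where 16.5% of sequences were called. Without both day 9 replicate 2 libraries the star's range was 1.79 and passed (adjusted p = 0.00133), that of miR-8 was 0.86 (adjusted p = 0.058), and 30.5% were called. The interaction of tissue and day did not pass for miR-8 (adjusted p = 0.183) or the star (adjusted p = 0.0964), where 11.2% were called, so a difference between the tissues in their course over days was not shown. Leaving out fat body day 9 replicate 1 left that group with the library labelled replicate 2 alone, where miR-8 read 65452. The interaction (3.41 for miR-8 and 3.27 for the star) and the change over days in fat body (2.08 and 2.12) then passed. So did the fat body step from day 9 to day 13 for miR-8 (2.08) and the star (2.12). The step of miR-8 from day 5 to day 9 (-1.66) passed too. These values thus rest on 1 library at day 9. In each of these comparisons that fit also called more of all tested sequences than the fit to all 16 libraries. Without replicate 2 instead, the step of miR-8 from day 9 to day 13 was -0.035.

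By day mean, the ratio of miR-8 to its star was lowest at day 13 in both tissues. Single libraries of day 9 reached those of day 13, with 22.8 at day 9 below 24.2 at day 13 in ovary and 25.9 at both days in fat body. In ovary it was 54.5 and 74.6 at day 1, 26.2 and 41.0 at day 5, 22.8 and 39.7 at day 9, and 24.2 and 15.6 at day 13. In fat body it was 47.95 and 50.2 at day 1, 47.7 and 43.5 at day 5, 36.4 and 25.9 at day 9, and 25.9 and 24.6 at day 13. Both day 13 libraries lay below both day 1 libraries in each tissue, and the day 9 replicate 2 libraries lay within the range of the other libraries of their tissue. The star thus made up 1.32% and 1.80% of both strands at day 1 in ovary and 3.97% and 6.01% at day 13, against 1.96% to 2.04% and 3.71% to 3.90% in fat body.

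The change of the log2 ratio over days, by exact permutation of the day labels, passed in fat body (range of day means 0.96, exact permutation p = 0.0190, adjusted p = 0.0381 over 4 tests) and not in ovary (range 1.71, exact permutation p = 0.114, adjusted p = 0.152). The smallest p that this test can give is 0.00952. The fat body result was kept without day 9 replicate 2 (exact permutation test, adjusted p = 0.0190) and was lost without any 1 of the other 7 libraries (adjusted p 0.0762 to 0.216). The mean log2 ratio differed between the tissues by -0.13, which did not pass (two-sided exact permutation test, p = 0.444, adjusted p = 0.444). The ratio does not depend on how the libraries were scaled.

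**Figure D4:**
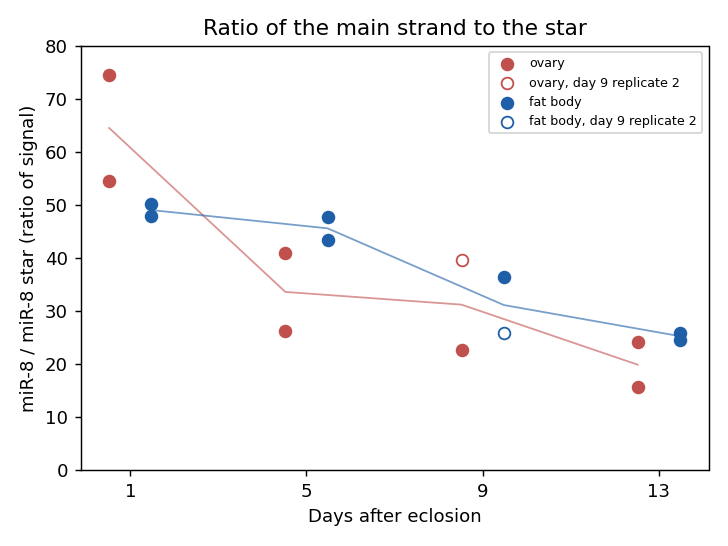
Ratio of miR-8 to its star strand in each library by day after eclosion, 1 point per library, ovary in red and fat body in blue; open points are the day 9 replicate 2 libraries. In each tissue both day 13 libraries lie below both day 1 libraries, from 54.5 and 74.6 down to 24.2 and 15.6 in ovary and from 47.95 and 50.2 down to 25.9 and 24.6 in fat body.

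The same ratio was then formed for 14 other miRNAs with both strands in the table and a star of at least 10 in every library, a comparison chosen after the miR-8 ratio had been seen. For miR-8 the log2 ratio at day 13 was 1.71 below day 1 in ovary (-1.71) and 0.96 below it in fat body (-0.96). Among the others, both day 13 libraries lay below both day 1 libraries in 5 of 14 in ovary, above them in 3, and overlapped in 6, with a median difference of 0.08. In fat body 5 of 14 lay below, 7 above and 2 overlapped, with a median of 0.28. A fall larger than that of miR-8 was seen in 3 of 14 in ovary and in 1 of 14 in fat body. Besides miR-8, miR-11593 (-1.70 and -1.14) and miR-305 (-0.69 and -0.68) lay below in both tissues. No test was made of these differences.

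**Figure D5:**
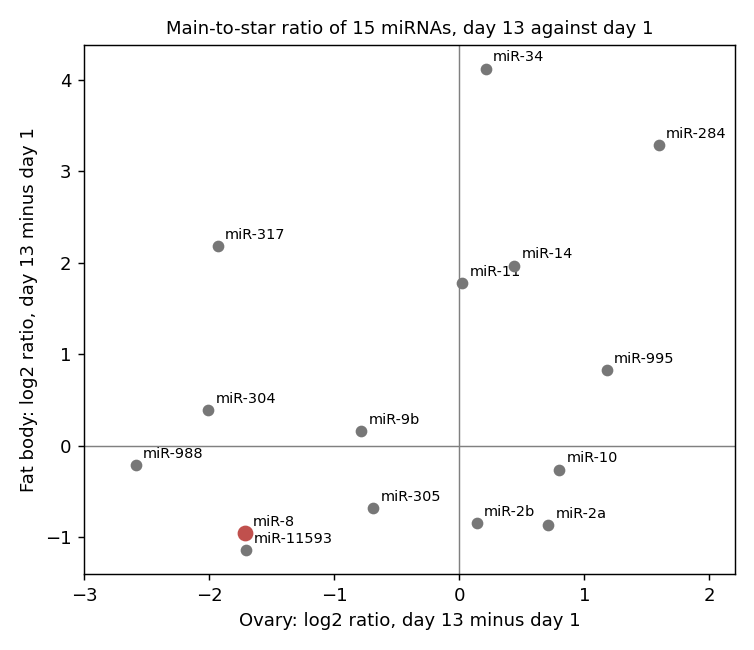
Change in the log2 ratio of main to star strand from day 1 to day 13 in ovary (horizontal) and fat body (vertical) for 15 miRNAs, 1 point each, miR-8 in red. The point of miR-8 lies at -1.71 and -0.96, in the lower left with miR-11593, miR-305 and miR-988. That of miR-988 lies at -2.59 and -0.21, and its day 1 and day 13 libraries overlapped in fat body.

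The 5 sequences whose log2 values followed miR-8 most closely over the 16 libraries, leaving aside the star (Pearson r = 0.909) and the A17T near copy (0.890), were bdo-miR-100 (0.932), dme-miR-274-5p_R-1 (0.915), dme-miR-277-3p (0.906), tca-miR-252a-5p_R+3 (0.855) and bdo-mir-252-p3 (0.849). In Drosophila miR-277 controls the breakdown of branched-chain amino acids. The correlations describe libraries that share the difference between tissues. Within the 7 ovary libraries without day 9 replicate 2, r was 0.750 for the star, 0.286 for miR-100, 0.108 for miR-274 and -0.345 for miR-277. Within the 7 fat body libraries it was 0.954 for the star, 0.970 for miR-274, 0.863 for miR-100 and 0.577 for miR-277.

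Other miRNAs known from metabolism or the fat body of flies or mosquitoes (miR-14, miR-275, miR-276, miR-277, miR-278 and miR-305) had 24 sequences in the table, 19 of them tested. These sequences are arms and variants of the miRNAs just named and not separate miRNAs. Over the mean of days limma called 7 of 19 lower in ovary, where 12.5% of all tested sequences were, and 0 higher (0 higher at an unadjusted p under 0.05). By day it called 0 of the 19 lower at days 1, 5 and 9 (2, 2 and 0 of all 321) and 7 at day 13 (46 of all 321). On recovered reads edgeR called 7 lower (38 of 321 overall) and DESeq2 12 (49 of 321), and both called 0 higher. The list had a median log2 difference of -0.64 against 0.20 for all tested sequences. Among those called, dme-miR-277-3p stood at log2 -1.51 (SE 0.33, adjusted p = 0.00612) and dme-miR-278-3p, a regulator of insulin responsiveness in Drosophila, at -1.28 (SE 0.35, adjusted p = 0.0161). Also called was bdo-miR-14, a regulator of fat metabolism in Drosophila, at -0.70 (SE 0.17, adjusted p = 0.00833). The rest of the called sequences were bdo-miR-276a, bdo-miR-276b_R-1, bdo-mir-276b-p3 and dme-miR-305-3p_1ss20CT. Among those not called were bdo-miR-275 (log2 -0.009) and bdo-miR-305 (log2 -0.31, adjusted p = 0.216 by limma). Muscle miR-1 moved the same way over the mean of days, with 3 of 4 tested sequences of the muscle list called lower in ovary against 12.5% of all tested. By day, 0 of the 4 were called lower at days 1, 5 and 9, and 3 at day 13. All 4 are arms or variants named miR-1 and not separate miRNAs, and miR-133 (mean 1.13) was too low to be tested. Apart from the day 9 replicate 2 libraries the summed signal of the muscle list ran from 3962 to 23622 in ovary and from 40614 to 89872 in fat body. The nerve miRNAs miR-124, miR-137 and miR-1000 (7 sequences) had 2 of 3 tested called lower in ovary against the same 12.5%, and made up at most 0.156% of any library. By day, 0 of these 3 were called lower at days 1, 5 and 9, and 2 at day 13. The part of either list in the difference between tissues was not tested.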

How the data were processed

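The authors' deposited table gives a normalised signal per mature sequence and library, marked as norm per the file headers. Per the labels' protocols, total RNA was made into TruSeq small RNA libraries and ACGT101-miR removed adapter dimers, junk, common RNA families and repeats. Aligner, build and method of scaling were not given in the sources used here. Members and lists were chosen with earlier results of these data known.

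Values were taken as log2(value + 1). Limma (3.58.1, under R 4.3.3) estimated 8 group means, with the spread following mean intensity, for the 321 sequences that reached 10 in 2 or more libraries, on 8 residual and 4.91 prior degrees of freedom. Adjusted p-values (Benjamini-Hochberg, threshold 0.05) run over all 321. Folds are of value + 1 as fitted. Joint tests cover all days of a tissue. Ratio (value + 1 of each strand) and share were tested by exact permutation, with 1296 arrangements for tissue within days and 2520 for days within a tissue, adjusted over 4 tests. The method was tested on simulated data.

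Low values were whole multiples of 1 read in 91.73% to 96.92% of cases per library, within a tolerance of 0.1 of a read. The recovered reads, rounded, served only edgeR 4.0.16 and DESeq2 1.42.0 as alternatives. For ovary day 9 replicate 2 a second check of whole reads did not pass, so its recovered reads, and the results of both tools that use them, are less certain. Read numbers limit the precision of low values, and since reads are not single molecules no counting intervals are printed. No replicate was a copy of the other (chi-square per degree of freedom 23.52 to 1822). Named sequences were the members, the 5 most correlated with miR-8, any with the same seed and members of the lists. The duplex was folded with RNAduplex 2.7.2. The alternatives were other pseudocounts, filters and scalings, a robust fit, a replicate block, both count tools and leaving out libraries.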

Additional observations from a re-analysis of the deposited data

How the results depend on the processing

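The lower level of miR-8 and its star in ovary over the mean of days and at day 13, and the star's change over days in ovary, passed in all 16 fits that left out 1 library and in all 11 other settings. Of 28 correlations of replicate differences between groups, 9 were above 0.1 (range -0.753 to 0.362). Between the tissues of the same day they were 0.083 at day 1, 0.248 at day 5, -0.753 at day 9 and 0.089 at day 13. Such correlations cannot decide whether equal replicate numbers mark pairs, which the labels do not say. The main fit used no pairing. With a replicate block the calls of miR-8 at day 1 (-2.44, adjusted p = 0.0624), miR-8 at day 5 (-2.74) and the star at day 5 (-2.27, adjusted p = 0.0647 for both) were lost. By edgeR on recovered reads miR-8 at day 1 (-2.66), miR-8 at day 5 (-2.56), the star at day 1 (-3.09) and the star at day 5 (-2.13) were not called, and miR-8 at day 1 was not called without the filter (-2.44), with library totals (-2.05) or with TMM (-2.46) as the scale. The star's rise in ovary from day 5 to day 9 was not called without the filter (1.88), with library totals (1.28), with TMM (1.81) or by edgeR (1.91). DESeq2 called the change of miR-8 over days in ovary (1.92). Uncalled steps changed sign for miR-8 in ovary from day 1 to 5 (TMM, -0.072), miR-8 in fat body from day 1 to 5 (edgeR, -0.052) and the star in fat body from day 5 to 9 (edgeR 0.27, DESeq2 0.081). Without day 9 the ratio's change in fat body was 0.96, and the exact permutation test could not pass there, since the smallest p that 90 arrangements allow is 0.0667 (the value obtained, adjusted p = 0.0889). Leaving out fat body day 9 replicate 1 left that group with the library labelled replicate 2 alone. The changes over days in fat body (miR-8 2.08, star 2.12) and the interaction (3.41 and 3.27) were then called. So was the change of miR-8 over days in ovary (1.85). That of miR-8 in ovary was also called without fat body day 9 replicate 2 (1.85) or ovary day 9 replicate 1 (2.53), and that of the star in fat body without fat body day 9 replicate 2 (1.79). Without fat body day 9 replicate 1, each of these tests called more of all 321 sequences than with all libraries. Leaving out a fat body library left the ovary values as they were and altered only the test, through the spread shared by all groups. The cause of the other changes was not tested.

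Leaving out 1 library, or both day 9 replicate 2 libraries, gave these ranges of log2 differences. For miR-8 they were -2.78 to -2.09 at day 1, -2.96 to -2.53 at day 5, -2.13 to 0.67 at day 9, -0.25 to 0.44 for ovary day 5 against 1, -1.66 to 0.46 for fat body day 9 against 5 and -0.035 to 2.08 for fat body day 13 against 9. Joint values of miR-8 were 1.17 to 2.53 over days in ovary, 0.86 to 2.08 in fat body and 0.61 to 3.41 for the interaction. For the star they were -2.93 to -2.70 at day 1, -2.44 to -2.10 at day 5, -1.45 to 0.46 at day 9, -0.85 to 0.78 for fat body day 9 against 5, 1.76 to 2.12 over days in fat body and 1.36 to 3.27 for the interaction. The ratio's range over days in fat body was 0.92 to 0.99, and the share's difference between tissues -20.9 to -13.4 points. For miR-8 in ovary from day 5 to day 9 the range was 1.07 to 2.43.

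The number of sequences called for the tissue mean was 119, against 78 to 163 leaving out 1 library and 84 to 174 in other settings. The day 13 count was 144 against 80 to 177, day 1 was 10 against 0 to 58, day 5 was 7 against 0 to 88 and day 9 was 0 against 0 to 111. Over days it was 87 against 56 to 176 in ovary, 53 against 4 to 160 in fat body and 36 against 0 to 108 for the interaction. The median of all tested sequences for the tissue mean was 0.20 as deposited, 0.55 with library totals and 0.10 with TMM, where miR-8 stood at -1.69 and -2.19. With 2 libraries a group, each single-day difference rests on 4 libraries, and the lowest recovered number of star reads in a library was 440.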
